A study of Mus musculus with 11 samples.

Results

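The genes described here make, sense, move and remove cholesterol. The set holds 31 genes named by symbol: 18 enzymes of the synthesis pathway and 13 genes of sterol sensing, uptake, transport, storage, removal and efflux. All 31 were among the 46202 gene rows of the expression table, each with a value in every library, and all 31 passed the filter on low signals, which kept 27721 rows. They were read in RNA of the mouse hippocampus, a brain region used in learning and memory, after insulin given through the nose. All animals were male mice of the strain written C3-C57B1/6J in the labels, aged 2 to 3 months, housed singly, and anaesthetized with isoflurane before the brain was taken. The control group (n = 3) had saline; its titles say saline, while its treatment label reads Untreated and its time label 0 min. The other groups had insulin at 2.4 IU per nare and were sampled after 15 min (n = 2, replicates 1 and 3), after 1 h (n = 3) or after 6 h (n = 3); replicate 2 at 15 min was not analysed here. Every insulin time was therefore set against controls of another sampling time, and the effects of insulin and of time since dosing cannot be told apart. Whether a library stands for 1 animal is not said in the labels, and a p-value here speaks only of the variation among libraries. One library, 6 h replicate 2, was the farthest of its group for 52.5% of rows, and the 6 h values of Idi1, Mvk, Dhcr7, Srebf2 and Cyp46a1 are also given without it.

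The brain makes nearly all of its own cholesterol, because lipoproteins of the blood do not cross the blood-brain barrier. Acetyl-CoA is built up through mevalonate to squalene, and squalene is closed to a ring and trimmed to cholesterol. In the adult brain much of this synthesis is assigned to astrocytes, which pass cholesterol to neurons on lipoprotein particles loaded by ABC transporters, and to oligodendrocytes, which use it for myelin. When membranes are low in sterol, the escort protein SCAP carries the transcription factor SREBP2 out of the endoplasmic reticulum, and SREBP2 then turns on the synthesis genes; INSIG proteins hold SCAP back when sterol is plentiful. Oxidised sterols activate the liver X receptors, which turn on efflux transporters and the ubiquitin ligase that removes lipoprotein receptors. In other tissues insulin is known to act on SREBP factors, which places these genes among those of interest after insulin.

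The promoters show what the pathway's genes share in sequence. RefSeq promoters on GRCm38.p6, from 250 bases before to 50 bases after a start, were found for 25 of the 31 genes by symbol, and the search read both strands. The box CCAAT, which the factor NF-Y binds beside SREBP at sterol genes, was in the promoter of 21 of these 25 genes (84%), against 41.1% of all 27025 genes with a promoter. Among synthesis enzymes 14 of 15 matched genes held it, and outside synthesis 7 of 10 did. The strict sterol regulatory element TCACNCCAC was in 1 of the 25, Hmgcs1, 137 to 129 bases before its start, against 1.44% of all genes. Looser forms of this element were not searched, and 1 match in 25 genes is too few to compare with that share. The exact DR4 repeat read by liver X receptors (AGGTCA given again in the same direction after 4 bases) was in 0 of the 25, against 0.0148% of all genes. An exact match this rare would be found in about none of 25 genes. This count therefore cannot tell whether looser forms of the site are present. A motif match describes these letters only, and genes with several listed starts have more chances of a match. Fdps, Fdft1, Sqle, Abcg1, Npc1 and Stard4 had no promoter in the table. The 250 bases before the start are shown for 4 genes, 5′ to 3′ on the plus strand. Hmgcs1 is shown as the only one of the 25 with the strict sterol element, and Mvk for its repeated boxes. Lss and Insig1 are shown as genes whose signals are described below. Capitals mark the sterol element TCACCCCAC and each CCAAT box, which reads ATTGG where it lies on the other strand.
Hmgcs1 (chr13:119690101-119690350, plus strand): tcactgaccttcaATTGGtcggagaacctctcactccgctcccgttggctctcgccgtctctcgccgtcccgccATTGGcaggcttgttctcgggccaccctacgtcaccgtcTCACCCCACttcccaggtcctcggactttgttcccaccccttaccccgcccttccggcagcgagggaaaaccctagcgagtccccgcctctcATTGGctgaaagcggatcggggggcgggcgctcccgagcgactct
Mvk (chr5:114444019-114444268, plus strand): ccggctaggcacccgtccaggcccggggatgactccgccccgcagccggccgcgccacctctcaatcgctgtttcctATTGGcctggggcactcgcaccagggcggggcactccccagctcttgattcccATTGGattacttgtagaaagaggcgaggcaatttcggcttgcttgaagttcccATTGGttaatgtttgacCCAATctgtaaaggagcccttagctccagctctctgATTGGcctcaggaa
Lss (chr10:76531355-76531604, plus strand): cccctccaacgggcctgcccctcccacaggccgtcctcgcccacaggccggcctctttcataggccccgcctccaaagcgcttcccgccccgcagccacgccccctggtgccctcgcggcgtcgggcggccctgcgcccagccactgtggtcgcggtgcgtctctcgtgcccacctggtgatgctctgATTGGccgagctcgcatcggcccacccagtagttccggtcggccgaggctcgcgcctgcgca
Insig1 (chr5:28071162-28071411, plus strand): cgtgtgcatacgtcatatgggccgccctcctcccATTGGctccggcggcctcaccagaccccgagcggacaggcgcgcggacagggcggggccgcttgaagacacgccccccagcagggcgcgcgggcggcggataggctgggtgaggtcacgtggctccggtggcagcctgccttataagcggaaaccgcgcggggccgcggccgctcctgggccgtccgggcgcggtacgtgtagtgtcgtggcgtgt

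The sequences differ in how many boxes they hold and where. The Mvk promoter has 5 CCAAT boxes, the nearest 14 to 10 bases before the start. Hmgcs1 has 4 in its promoter window, of which 3 lie before the start and are shown. Lss has 1 box, 62 to 58 bases before the start, and Insig1 has 1, 216 to 212 bases before it.

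No gene of the set passed the test at any time after insulin. With limma and Benjamini-Hochberg adjustment at 0.05 over all rows, 0 of 31 were called at 15 min, 0 after 1 h and 0 after 6 h, where the smallest adjusted p were 0.160 (Acat2), 0.196 (Insig1) and 0.703 (Idi1). Over all rows tested, 0.239% were called at 15 min, 0.877% at 1 h and 0% at 6 h, so a set of this size would hold about none at those rates. The comparisons between insulin times also called 0 of 31, with 0% of all rows called between 1 h and 15 min, 0.00723% between 6 h and 15 min and 0.0108% between 6 h and 1 h. An F test over the 4 groups called 0 of 31 and 0.365% of all rows, with a smallest adjusted p of 0.261 among the sterol genes (Fdft1).

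On the deposited scale, the main fit gives a 95% interval for the change of each transcript, taken singly. Each of the 31 95% intervals lay between log2 changes of -0.83 and 0.83 at 15 min, -0.57 and 0.71 at 1 h, and -0.74 and 0.75 at 6 h, so a log2 change of 1 either way lay outside every interval of this fit. The intervals are not joint over the genes and times, and none were computed for other scalings. With libraries centred on their median, the 15 min change of Insig1 was 0.66, against 0.49 in the main fit. The median distance from a change to its interval's end was 0.27 at 15 min and 0.24 at 1 h and 6 h. The deposited scale itself was shifted. At 15 min the median log2 change over the whole table was -0.14, with -0.11 after 1 h and -0.04 after 6 h. The median over the 31 genes was -0.09, -0.05 and -0.03 at these times, which is 0.05 above, 0.06 above and 0.004 above the median of all rows. By sign, 9 of 31 genes were above 0 at 15 min, 13 at 1 h and 14 at 6 h, against 31.3%, 33.2% and 43.0% of all rows. Counts by sign and medians over the set are descriptions. In bulk tissue, fewer cells of a type and less RNA per cell cannot be told apart.

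**Figure D1:**
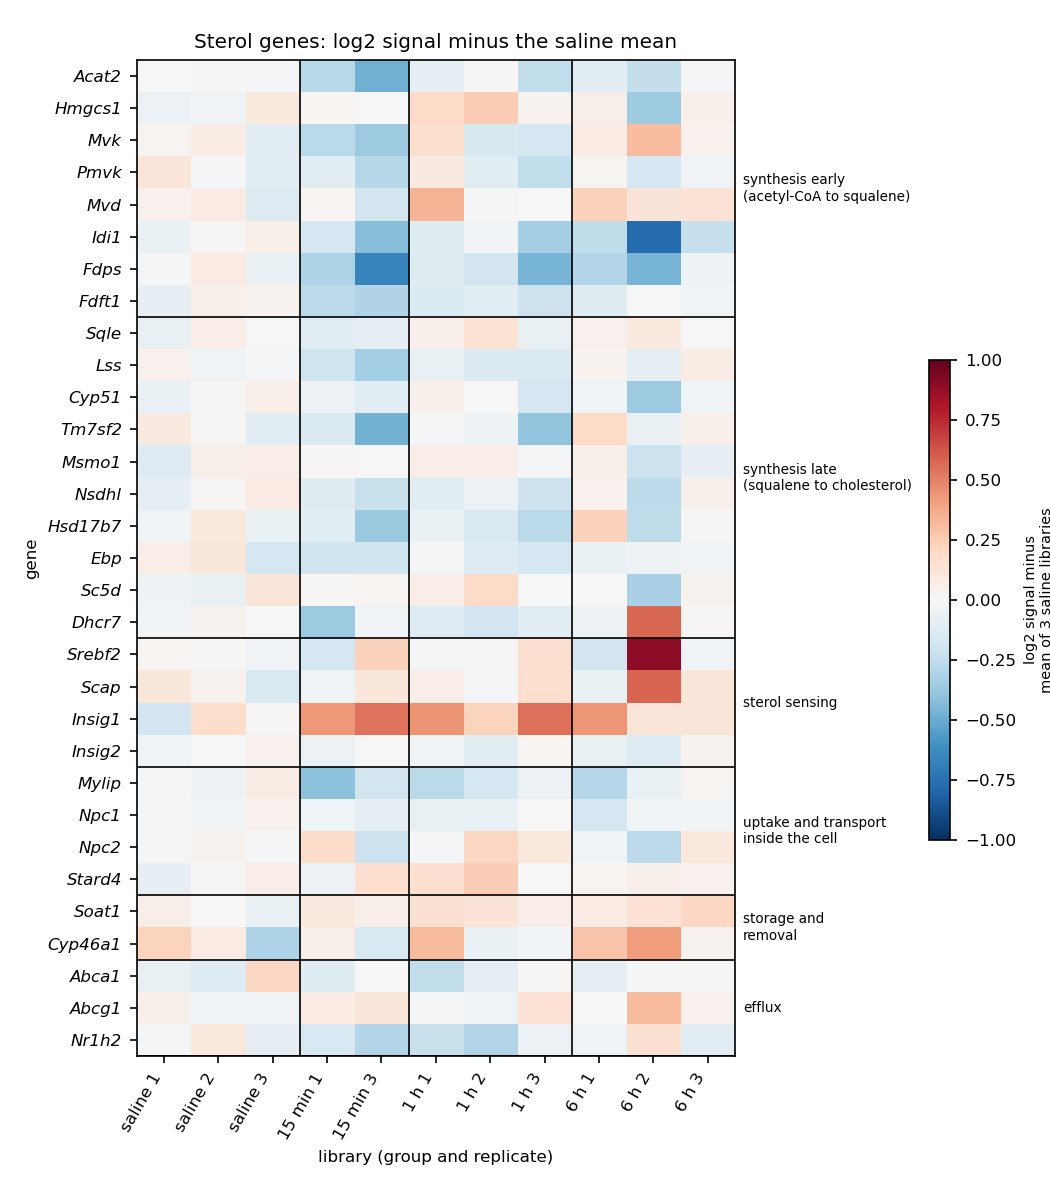
Log2 signal of the 31 sterol genes (rows, grouped by role) in the 11 libraries (columns), as the difference from the mean of the 3 saline libraries; red is above and blue below that mean. Insig1 is above the saline mean in all 8 insulin libraries, and Srebf2, Scap and Dhcr7 stand out in 1 library, 6 h replicate 2.

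**Figure D2:**
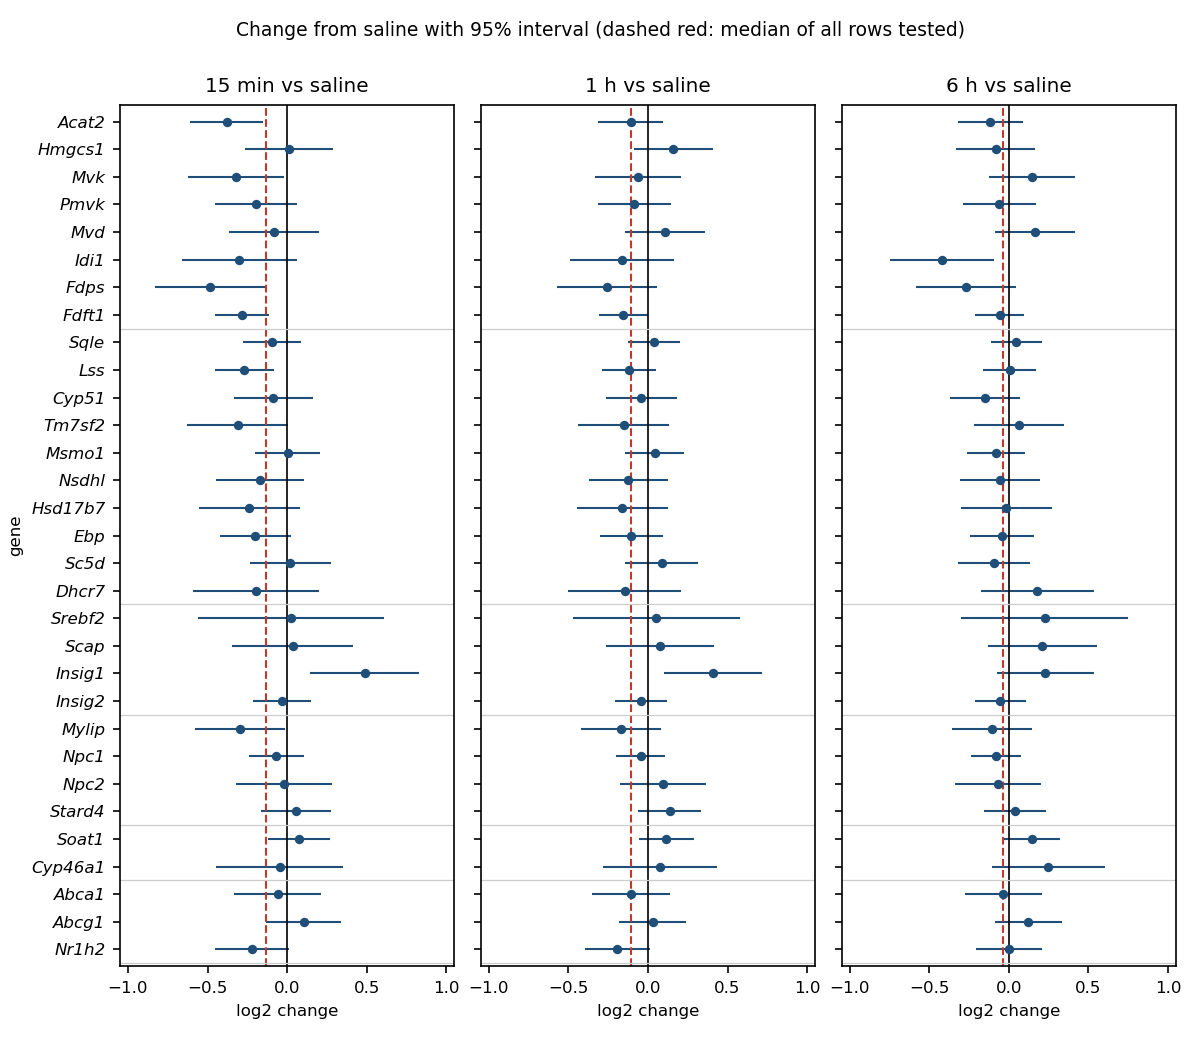
Log2 change from saline (x axis) of each gene (y axis) at 15 min, 1 h and 6 h, with points for the fitted change, bars for its 95% interval, a black line at 0 and a dashed red line at the median of all rows tested. All intervals lie within 1 log2 unit of 0, and most cross both lines.

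Among the enzymes from acetyl-CoA to squalene, 7 of 8 had a negative log2 change at 15 min, with a median of -0.29, which is -0.16 relative to all rows. None of the 8 passed the adjusted test. Acat2 (chromosome 17, 12943042 to 12960725) makes acetoacetyl-CoA in the cytosol. With saline, Acat2 read 0.59, 0.61 and 0.59, against 0.31 and 0.12 at 15 min, 0.51, 0.60 and 0.35 at 1 h and 0.49, 0.36 and 0.59 after 6 h. Both 15 min libraries lay below every saline library, while the highest 1 h and 6 h values came close to the saline level. The log2 change at 15 min was -0.38 (SE 0.10, limma adjusted p = 0.160), or -0.24 relative to all rows. Hmgcs1, which condenses acetoacetyl-CoA to HMG-CoA, showed no such step. Hmgcs1 read 3.34, 3.36 and 3.49 in the saline libraries, 3.42 and 3.39 at 15 min, 3.58, 3.65 and 3.43 at 1 h and, after 6 h, 3.45, 3.04 and 3.45. The groups overlapped at each time, and the lowest value of all was that of 6 h replicate 2. Mvk phosphorylates mevalonate. For Mvk the saline libraries gave -1.02, -0.97 and -1.15, those of 15 min -1.32 and -1.41, those of 1 h -0.88, -1.21 and -1.22 and those of 6 h -0.97, -0.73 and -0.999. The pair at 15 min was below all 9 other libraries. Its log2 change was -0.32 at 15 min (SE 0.13, limma adjusted p = 0.311) and 0.15 at 6 h (adjusted p = 0.768; 0.06 without 6 h replicate 2), and the difference from 15 min to 6 h of 0.46 did not pass either (SE 0.13, adjusted p = 0.223).

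Fdps makes farnesyl diphosphate, the branch point to sterols, ubiquinone and protein prenylation. The log2 signal of Fdps was -0.33, -0.23 and -0.38 with saline, then -0.62 and -0.97 at 15 min, -0.43, -0.50 and -0.78 at 1 h and -0.61, -0.78 and -0.36 in the 6 h libraries. All 15 min and 1 h libraries were below all saline libraries, and the 6 h libraries overlapped with them. The log2 change at 15 min was -0.48 (SE 0.16, limma adjusted p = 0.209), and it was -0.66 without 15 min replicate 1 and -0.31 without replicate 3. Fdft1 (chromosome 14, 63145150 to 63181687), squalene synthase, commits farnesyl diphosphate to sterols. With saline, Fdft1 read 0.41, 0.54 and 0.53, against 0.23 and 0.19 at 15 min, 0.36, 0.38 and 0.29 at 1 h and 0.38, 0.49 and 0.45 after 6 h. It had the smallest p of the set in the F test, and its 3 saline values did not overlap with those at 15 min or 1 h. The log2 change was -0.28 at 15 min (SE 0.08, limma adjusted p = 0.162), -0.15 at 1 h (0.316) and -0.06 at 6 h (0.829). Idi1 interconverts the isoprenoid building blocks. Idi1 read 1.19, 1.27 and 1.32 in the saline libraries, 1.09 and 0.84 at 15 min, 1.14, 1.24 and 0.92 at 1 h and, after 6 h, 1.01, 0.49 and 1.03. The 15 min and 6 h libraries lay below saline. At 6 h the log2 change was -0.42 (SE 0.15, limma adjusted p = 0.703) with all 3 libraries and -0.24 without replicate 2 (adjusted p = 0.934). Pmvk and Mvd, which carry mevalonate phosphate to isopentenyl diphosphate, had log2 changes between -0.20 and 0.16 over the 3 times, and a whole group lay outside the saline range only for Pmvk at 15 min and Mvd at 6 h.

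Among the 10 enzymes from squalene to cholesterol, 8 had a negative log2 change at 15 min, 7 at 1 h and 6 at 6 h, with medians of -0.18, -0.11 and -0.03. Relative to all rows these medians were -0.05, -0.01 and 0.01. Sqle, squalene epoxidase, catalyses a rate-limiting step of the later pathway. For Sqle the saline libraries gave 1.21, 1.35 and 1.28, those of 15 min 1.18 and 1.19, those of 1 h 1.33, 1.42 and 1.20 and those of 6 h 1.32, 1.38 and 1.28. The 15 min pair was just under the saline values and the other groups overlapped with saline. Lss (chromosome 10, 76531565 to 76557139) closes the ring to lanosterol. The log2 signal of Lss was 0.15, 0.07 and 0.10 with saline, then -0.09 and -0.23 at 15 min, 0.03, -0.03 and -0.04 at 1 h and 0.14, 0.01 and 0.18 in the 6 h libraries. All 5 libraries at 15 min and 1 h were below all saline libraries, and those at 6 h ran from 0.01 to 0.18. Its log2 change was -0.27 at 15 min (SE 0.08, limma adjusted p = 0.198), -0.12 at 1 h (0.492) and 0.00 at 6 h (0.991). Tm7sf2 is a sterol C14 reductase. With saline, Tm7sf2 read 0.61, 0.54 and 0.42, against 0.37 and 0.05 at 15 min, 0.50, 0.47 and 0.13 at 1 h and 0.72, 0.45 and 0.57 after 6 h. The 15 min libraries were below saline, but replicate 3 at 1 h lay between the 2 of them. The log2 change at 15 min was -0.31 (SE 0.14, limma adjusted p = 0.340), and it was -0.47 without replicate 1 and -0.15 without replicate 3. Dhcr7 reduces 7-dehydrocholesterol to cholesterol, and its loss causes Smith-Lemli-Opitz syndrome. Dhcr7 read -1.13, -1.06 and -1.11 in the saline libraries, -1.47 and -1.13 at 15 min, -1.23, -1.30 and -1.21 at 1 h and, after 6 h, -1.15, -0.53 and -1.09. At 6 h only replicate 2 was above saline. The log2 change at 6 h was 0.18 (adjusted p = 0.783) with that library and -0.02 without it (adjusted p = 0.991). The others in this stretch, Cyp51, Msmo1, Nsdhl, Hsd17b7, Ebp and Sc5d, had log2 changes between -0.24 (Hsd17b7, 15 min) and 0.09 (Sc5d, 1 h), with adjusted p of at least 0.383.

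**Figure D3:**
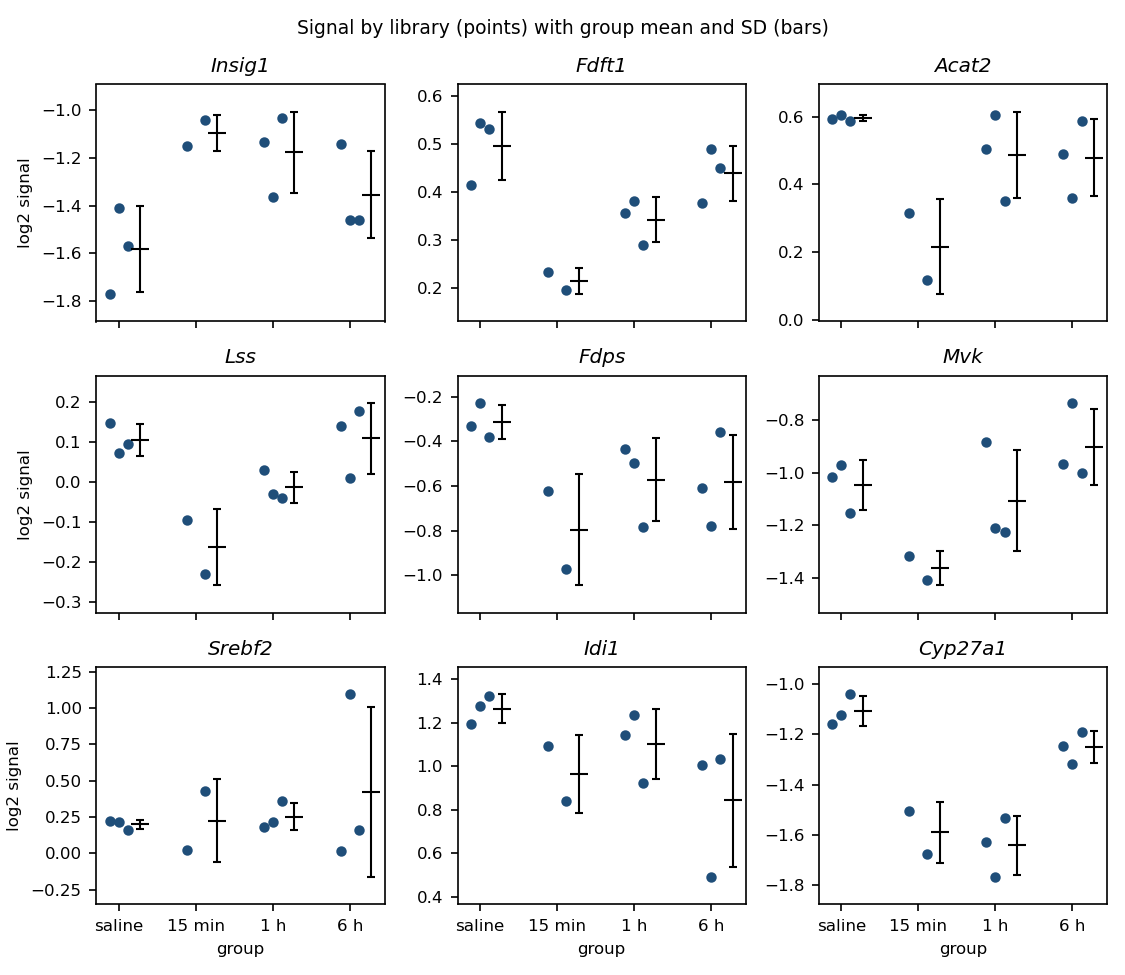
Log2 signal (y axis) by group (x axis) for 8 sterol genes and Cyp27a1, with 1 point per library and a bar for the group mean and SD. Fdft1, Lss, Acat2, Mvk and Fdps are lowest at 15 min, Insig1 is highest there, and the spread of Srebf2 at 6 h comes from 1 library.

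In the sensing group, Insig1 had the largest positive difference of the 31 genes at 15 min and at 1 h. Insig1 (chromosome 5, 28071412 to 28078662) encodes a retention protein that is itself a target of SREBP. For Insig1 the saline libraries gave -1.77, -1.41 and -1.57, those of 15 min -1.15 and -1.04, those of 1 h -1.13, -1.36 and -1.03 and those of 6 h -1.14, -1.46 and -1.46. All 5 libraries at 15 min and 1 h were above all 3 saline libraries, while 2 of the 3 at 6 h lay within the saline range. The group means were -1.58 ± 0.18 with saline (SD, n = 3), -1.10 ± 0.08 for 15 min (n = 2), -1.18 ± 0.17 for 1 h (n = 3) and -1.35 ± 0.18 for 6 h (n = 3). The 15 min difference was 1.40-fold (log2 0.49, SE 0.15, 95% interval 0.14 to 0.83) with a limma adjusted p of 0.201. At 1 h it was 1.33-fold (log2 0.41, SE 0.14, 95% interval 0.10 to 0.71, adjusted p = 0.196), and at 6 h the log2 difference was 0.23 (adjusted p = 0.721). Relative to all rows these were 0.62, 0.51 and 0.27. Insig2, its paralogue, was close to its saline level. The log2 signal of Insig2 was 0.21, 0.26 and 0.30 with saline, then 0.20 and 0.25 at 15 min, 0.22, 0.14 and 0.28 at 1 h and 0.18, 0.13 and 0.29 in the 6 h libraries. Every group overlapped with saline, and the log2 changes were -0.03, -0.04 and -0.05. Srebf2 encodes SREBP2 itself. With saline, Srebf2 read 0.22, 0.22 and 0.16, against 0.02 and 0.43 at 15 min, 0.18, 0.22 and 0.36 at 1 h and 0.02, 1.09 and 0.16 after 6 h. Of the 11 values, 10 lay between 0.02 and 0.43, and 6 h replicate 2 stood alone at 1.09. The 6 h log2 change was 0.22 with it (adjusted p = 0.810) and -0.11 without it (adjusted p = 0.967). Scap, the escort, followed the same library, at 0.27 there against -0.46 to -0.14 in the other 10.

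Of the genes for uptake and transport, Mylip is the ubiquitin ligase that marks lipoprotein receptors for breakdown and is a liver X receptor target. Mylip read -0.97, -1.002 and -0.88 in the saline libraries, -1.36 and -1.14 at 15 min, -1.22, -1.13 and -1.01 at 1 h and, after 6 h, -1.24, -1.02 and -0.92. All libraries at 15 min and 1 h were below all saline libraries. The log2 change was -0.30 at 15 min (SE 0.13, limma adjusted p = 0.311; -0.18 without 15 min replicate 1 and -0.41 without replicate 3), -0.17 at 1 h (0.518) and -0.11 at 6 h (0.808), so relative to all rows it was -0.16, -0.06 and -0.07. Npc1 exports cholesterol from lysosomes, and its loss causes Niemann-Pick disease type C. For Npc1 the saline libraries gave 0.21, 0.19 and 0.26, those of 15 min 0.17 and 0.13, those of 1 h 0.14, 0.15 and 0.22 and those of 6 h 0.04, 0.19 and 0.19. The values span little, and the log2 changes were between -0.08 and -0.05. Npc2, which hands cholesterol to Npc1, and Stard4, a soluble sterol carrier, had log2 changes between -0.07 and 0.14 with adjusted p of at least 0.502.

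Storage and removal of cholesterol use Soat1, which esterifies cholesterol, and Cyp46a1, the neuronal enzyme that makes 24S-hydroxycholesterol, the form in which the brain discards cholesterol. The log2 signal of Cyp46a1 was 0.60, 0.47 and 0.08 with saline, then 0.44 and 0.23 at 15 min, 0.70, 0.32 and 0.36 at 1 h and 0.67, 0.80 and 0.42 in the 6 h libraries. The saline values alone span the range of most insulin values, and the log2 changes were -0.05, 0.08 and 0.25 (0.16 without 6 h replicate 2) with adjusted p of at least 0.736. Soat1 had log2 changes of 0.08, 0.11 and 0.15, and its 1 h and 6 h libraries were above all saline libraries (limma adjusted p = 0.527 and 0.721). Abca1 and Abcg1 load cholesterol onto lipoprotein particles. With saline, Abca1 read -0.65, -0.70 and -0.37, against -0.70 and -0.57 at 15 min, -0.82, -0.66 and -0.56 at 1 h and -0.67, -0.60 and -0.56 after 6 h. The groups overlapped at each time. Abcg1 read 0.28, 0.20 and 0.20 in the saline libraries, 0.31 and 0.35 at 15 min, 0.21, 0.19 and 0.37 at 1 h and, after 6 h, 0.23, 0.55 and 0.27. Both 15 min libraries were above saline by a small margin, with a log2 change of 0.10 (SE 0.10, limma adjusted p = 0.671). Nr1h2 encodes the liver X receptor beta, which turns on Abca1, Abcg1 and Mylip. For Nr1h2 the saline libraries gave 1.85, 1.98 and 1.79, those of 15 min 1.72 and 1.58, those of 1 h 1.65, 1.58 and 1.81 and those of 6 h 1.83, 2.02 and 1.77. The 15 min libraries were below saline as were 2 of the 3 libraries at 1 h, with log2 changes of -0.22 (SE 0.10, limma adjusted p = 0.348) and -0.19 (0.358). The 3 liver X receptor targets thus had 15 min log2 changes of -0.06 (Abca1), 0.10 (Abcg1) and -0.30 (Mylip), none past the test.

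Counts under the unadjusted threshold of p under 0.05, and of groups that do not overlap, show how common such patterns were in the table. At 15 min 1 of 31 genes was higher at that threshold (Insig1) and 6 were lower (Acat2, Fdft1, Lss, Fdps, Mvk and Mylip), against 1.86% and 13.2% of all rows. With no overlap between groups, 2 were higher (Insig1 and Abcg1) and 15 were lower, against 7.84% and 30.7% of all rows. At 1 h 1 was higher (Insig1) and 1 lower (Fdft1), against 2.87% and 12.8%, and without overlap 2 were higher (Insig1 and Soat1) and 5 lower (Fdps, Dhcr7, Lss, Mylip and Fdft1), against 6.76% and 21.2%. At 6 h 0 were higher and 1 lower (Idi1), against 2.75% and 4.23%, and without overlap 2 were higher (Soat1 and Mvd) and 2 lower (Idi1 and Acat2), against 4.81% and 8.9%. The F test at the unadjusted threshold took 5 of 31 (Fdft1, Acat2, Lss, Insig1 and Mvk), against 14.4% of all rows. Low values at 15 min were thus frequent over the whole table. The set's own shares at 15 min, 6 and 15 of 31, were larger than those of all rows, and this difference was not tested. When each library was centred on its own median, 3 of 31 were higher at 15 min at that threshold and 0 lower, against 12.3% of all rows in either direction and a median of all rows of 0.04. With cyclic loess scaling 2 were higher and 4 lower, 3 of the 4 being early enzymes, against 10.8% of all rows. In both, 6 of the 8 early enzymes had a negative log2 change at 15 min, with a median of -0.12 after centring and -0.20 after loess. Between 15 min and 1 h, 27 of the 31 genes were higher at 1 h, including all 18 synthesis enzymes, against 54.9% of all rows; the median difference was 0.08, and no gene passed (limma adjusted p = 0.99982 for each). This count was 24 of 31 after centring, against 47.9% of all rows, and 27 after loess, against 48.4%. Leaving out single libraries of these groups gave 23 (without either 15 min library or without 1 h replicate 3) to 29 (without 1 h replicate 2). The 15 min libraries also serve the comparison with saline, so these signs are no separate evidence of the 15 min values.

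The rest of the sterol pathway was read from 51 further genes of synthesis, lipoprotein uptake, efflux, sensing and oxysterol formation, all of which passed the filter. Of these, 0 were higher and 1 was lower at 1 h in the adjusted test, and 0 of 51 passed at 15 min or 6 h. Over all rows tested, 0.877% were called at 1 h, 0.239% at 15 min and 0% at 6 h, so 1 call among 51 genes is near the rate of the table. The gene that fell was Cyp27a1 (chromosome 1, 74713148 to 74737897), the mitochondrial enzyme that makes 27-hydroxycholesterol. The log2 signal of Cyp27a1 was -1.16, -1.12 and -1.04 with saline, then -1.50 and -1.68 at 15 min, -1.63, -1.77 and -1.53 at 1 h and -1.25, -1.32 and -1.19 in the 6 h libraries. The 15 min and 1 h libraries were all below saline, and at 1 h it was 0.690 times its saline level (log2 -0.53, SE 0.10, limma adjusted p = 0.045), or -0.43 on the log2 scale relative to all rows. The log2 change was -0.48 at 15 min (adjusted p = 0.122) and -0.14 at 6 h (0.743). The 1 h call was lost in 14 of 19 alternative analyses, with adjusted p from 0.027 to 0.181, including every one that left out a saline or 1 h library. It was lost under both rescalings too, cyclic loess and libraries centred on their median (log2 change -0.39). The same held for the fit of only the 2 groups compared, the replicate block and the fits without either 15 min library. At unadjusted p under 0.05, 1 of the 51 was higher and 6 lower at 15 min, 2 higher and 5 lower at 1 h, and 1 higher and 1 lower at 6 h. The shares of all rows, as above, were 1.86% and 13.2%, 2.87% and 12.8%, and 2.75% and 4.23%. The median log2 change of the 51 was -0.05, -0.07 and 0.05.

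One library stood apart for a few of the sterol genes. In 6 h replicate 2, Srebf2 stood 1.00 above the mean of the other 6 h libraries on the log2 scale, Dhcr7 0.59 above and Scap 0.56 above, while Idi1 was -0.53 and Hmgcs1 -0.41 relative to them. It was the farthest of its group for 17 of the 31 sterol genes, near its share of 52.5% of all rows. In the 1 h group, replicate 3 was the farthest for 19 of the 31, against 39.0% of all rows. The deviations of 6 h replicate 2 were related to base composition. Across the 31 genes, Pearson's r between deviation and the G+C content of the longest GENCODE M21 transcript was 0.65, and across 20480 genes it was 0.32. These points share a library, and the deviations of libraries in a group depend on each other, so r is a description. Other libraries showed such a relation among the 31 genes too, with r of 0.60 in saline replicate 1, -0.69 in saline replicate 3, -0.60 in 1 h replicate 2 and -0.62 in 6 h replicate 3. The 6 h log2 changes of the 31 genes had an r of 0.54 with G+C content, and 0.10 without replicate 2. The spread within groups ran from an SD of 0.05 (Soat1) to 0.33 (Srebf2), and Srebf2 had 0.14 without 6 h replicate 2. Without that library the SD was larger for 10 of the 31 genes and smaller for 21, and it was smaller by over 1.5 times for 9 (Hmgcs1, Idi1, Cyp51, Nsdhl, Sc5d, Dhcr7, Srebf2, Scap and Abcg1). No gene of the set was called at 6 h with or without it.

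**Figure D4:**
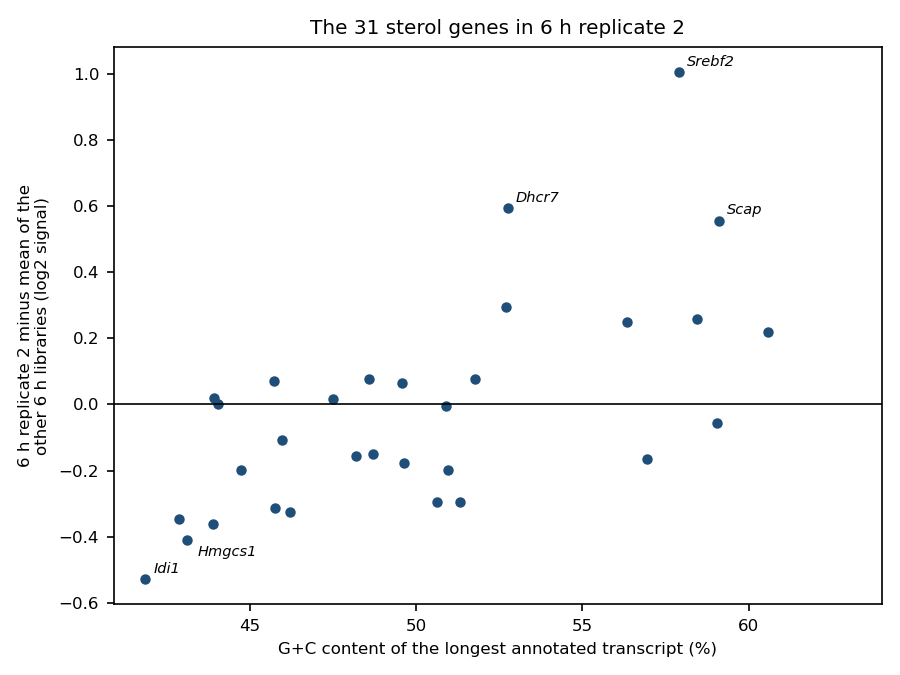
Deviation of 6 h replicate 2 from the mean of the other 6 h libraries (y axis, log2 signal) against the G+C content of the longest annotated transcript (x axis, percent), with 1 point per sterol gene. Srebf2, Dhcr7 and Scap are the highest points, and Idi1 and Hmgcs1, toward the low end of G+C content, are the lowest.

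Markers of several cell types were read in the same libraries. Over all rows tested, 0.239% were called at 15 min, 0.877% at 1 h and 0% at 6 h. Marker lists this short would hold about none at those rates, so a count of 0 does not show that cell content was the same. Of 9 astrocyte markers 0 passed at any time, and their mean log2 signal was 2.00 to 2.28 with saline, 2.09 to 2.25 after 15 min, 1.99 to 2.24 after 1 h and 2.10 to 2.36 after 6 h. Of 9 oligodendrocyte markers 0 passed, with 3.71 to 3.99 under saline, 3.73 in both 15 min libraries, 3.41 to 3.87 after 1 h and 3.68 to 3.84 after 6 h. Of 7 neuronal markers 0 passed as well, and all 6 markers of dentate granule neurons and all 6 of hippocampal pyramidal neurons had a signal above the filter, with 0 of each called. Markers of choroid plexus, a neighbouring tissue, varied widely between libraries although 0 of 8 passed, with a summed linear signal of 39.7 to 61.3 under saline, 27.97 to 133 after 15 min, 2.82 to 88.5 after 1 h and 1.03 to 23.5 after 6 h. Of 8 endothelial markers 0 passed, yet their mean log2 signal was -1.29 to -0.87 with saline and lower in every library at 15 min (-1.59 to -1.38) and at 1 h (-1.48 to -1.47). Of 7 pericyte markers 0 passed, with means of -1.62 to -1.43 with saline, -1.80 to -1.70 after 15 min and -1.88 to -1.78 after 1 h, again without overlap. After 6 h both overlapped with saline, at -1.51 to -1.16 for endothelial and -1.67 to -1.54 for pericyte markers. Among all single rows, 30.7% were lower than saline without overlap at 15 min and 21.2% at 1 h. The part of these marker levels in the sterol gene values was not tested.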

How the data were processed

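RNA of 11 hippocampus libraries was measured by sequencing with a stranded total RNA kit read from both ends, per the labels' protocols. The authors deposited a log2 signal for each gene symbol and library. Tools listed in the submitters' processing notes are bcl2fastq and Partek 6.7, with the build GRCm38; the aligner and counter were not named there. Each library has the same minimum (-13.64), median (-3.20) and maximum (16.00), so the deposited values are quantile-normalized between libraries, over 32037 to 33653 genes with a value. No header states the log base; in rows with values in only 3 to 6 libraries, 89.8% to 98.8% of differences between libraries of a group lay within 0.1 of the base 2 steps of small whole counts, after a shift, against 68.4% to 76.3% for base e and 52.8% to 62.3% for base 10. Depth is unknown, so no counting interval is given.

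In R 4.3.3, limma 3.58.1 fitted 1 mean per group over all 11 libraries, after leaving out the 40% of rows with the lowest mean, with moderated two-sided tests and Benjamini-Hochberg adjustment at 0.05 over all rows tested. Missing values stayed missing, and all sterol genes had none. Intervals are 95%. The fit was tested on simulated data. Gene coordinates and promoters are from RefSeq, GRCm38.p6. The genes and lists were chosen with earlier results of these data known. Signals are given by library for the 10 sterol genes with the smallest F test p and for a panel (Hmgcs1, Sqle, Dhcr7, Srebf2, Insig1, Insig2, Abca1, Abcg1, Mylip, Cyp46a1 and Npc1), and for further sterol genes past the test. Alternatives were other filters, scalings, variance models, groups fitted, a replicate block and leaving out each library. Some of the marker results are not reported here.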

Additional observations from a re-analysis of the deposited data

How the results depend on the processing

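In 19 alternative analyses of each comparison between groups, and 18 of the F test, 0 of 31 sterol genes passed the adjusted test. The lowest adjusted p of a sterol gene over all of them was 0.090 at 15 min (without 6 h replicate 2), 0.138 at 1 h (libraries centred on their median), 0.355 after 6 h (without 6 h replicate 1) and 0.143 in the F test. The counts over all rows moved more, from 1 to 115 for 15 min and 42 to 479 for 1 h, with 0 throughout for 6 h. At 6 h 1934 rows had an unadjusted p under 0.05. With a replicate block, 0 sterol genes passed, and the counts over all rows went from 66 to 38 for 15 min, from 243 to 159 for 1 h and from 101 to 40 for the F test. Libraries with the same number had correlations of deviations from -0.06 to 0.24, over 0.1 in 7 of 15 pairs. Those with unlike numbers ran from -0.25 to 0.25, and 6 of 11 libraries correlated best with their own number. The main fit did not treat libraries of the same number as pairs, and whether they share more than a number was not tested. Changes of single genes that were not past the threshold have no called direction and were compared by size. Of 589 such values at each time, 39 moved by more than 1 SE after 15 min, 28 after 1 h and 9 after 6 h, and the sign differed in 36, 22 and 21 values, of 15, 17 and 13 genes. The median of the set relative to all rows ran from -0.03 to 0.07 after 15 min, -0.004 to 0.08 after 1 h and -0.02 to 0.05 after 6 h, each lowest value coming from adding an offset on the linear scale. The cause was not tested.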

Other observations

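Ch25h (chromosome 19, 34473783 to 34475148) encodes cholesterol 25-hydroxylase, an enzyme of activated immune cells whose product holds back sterol synthesis. It belongs to the 51 further sterol genes and was chosen for mention after its values were seen. With saline, Ch25h read -2.64, -3.74 and -3.37, against -0.17 and -1.99 at 15 min, -1.14, -1.63 and -2.59 at 1 h and -2.74, -2.80 and -2.38 after 6 h. All 15 min and 1 h libraries were above all saline libraries, and the 2 libraries at 15 min differed from each other by more than those at any other time. The log2 difference was 2.17 at 15 min (SE 0.55, limma adjusted p = 0.143), 1.46 at 1 h (adjusted p = 0.192) and 0.61 at 6 h (adjusted p = 0.763), so it did not pass the test.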
